A study of Homo sapiens with 12 samples.

Results

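MHC class I molecules show peptides from inside the cell to CD8+ T cells. Before they can do so, peptides made by the proteasome must cross into the endoplasmic reticulum (ER), be trimmed to length and be fitted onto a class I chain. The 9 genes described here encode that machinery: TAP1 and TAP2, the subunits of the peptide transporter, the peptide editors tapasin (TAPBP) and its relative TAPBPR (TAPBPL), the trimming aminopeptidases ERAP1 and ERAP2, and the chaperones calreticulin (CALR), calnexin (CANX) and ERp57 (PDIA3). They were taken by name as the rows for these 9 genes among 43769 genes in the deposited count table. No cutoff on measured values set the choice, but it was made with earlier results of these data known. Interferon gamma (IFNγ), a cytokine of T and NK cells, acts in part through the transcription factor IRF1 and is known to raise the transporter, the editors and the aminopeptidases in many cell types, whereas the chaperones serve glycoprotein folding in nearly every cell.

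RNA was sequenced from SK-N-DZ cells, an established human neuroblastoma line with MYCN amplification, in 4 groups with 3 replicates each. All 12 libraries come from a clonal line that carries a doxycycline-inducible hairpin against ARID1A, a subunit of the SWI/SNF chromatin remodeling complex. The control group (C, genotype label WT) received neither agent, and the D group (genotype label shARID1A) received doxycycline for 4 days. The I group (WT) received IFNγ for 24 h, and the DI group (shARID1A) received both. No group had doxycycline without the hairpin, so an effect of the drug and an effect of the hairpin cannot be told apart, and the libraries stand for 1 line. The comparisons ask how IFNγ moves peptide loading genes and whether induction of the hairpin alters that response.

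The libraries held between 16469832 and 21790869 counts, at which 3 counts equal 0.135 to 0.187 CPM (the count scaled to a common library size). ARID1A mRNA itself measured 197, 186 and 165 CPM in C and 197, 159 and 158 CPM in D, which overlap, and the difference did not pass the test (log2 fold change -0.09 ± 0.11 SE, adjusted p = 0.788, edgeR quasi-likelihood test). In DI it measured 151, 133 and 148 CPM against 192, 203 and 194 CPM in I, below every I library (log2 fold change -0.44 ± 0.11 SE, adjusted p = 0.115 by edgeR, 0.0149 by DESeq2, and 0.0111 by edgeR when blocked on replicate number). The mRNA therefore did not show the labelled knockdown in D, and the groups are named here by treatment. The sympathetic neuroblast genes HAND2, GATA3, ISL1, DBH and MYCN averaged between 71.4 and 1253 CPM over the groups, while of 8 markers of leukocytes, endothelium, fibroblasts and epithelium CD3E and PECAM1 had 0 counts in all 12 libraries and the other 6 reached between 0.248 CPM (CDH5) and 5.02 CPM (COL1A1) at most. Their summed level was 1.99 to 3.63 CPM in C, 2.03 to 7.92 CPM in D, 1.62 to 2.95 CPM in I and 2.12 to 3.44 CPM in DI. Mitochondrially encoded mRNA made up 3.35% to 4.99% of the C libraries and 2.90% to 4.42% of the I libraries, but 0.856% to 1.30% of D and 0.768% to 2.58% of DI. That share was lower in both doxycycline groups, and its part in the comparisons of D with C and of DI with I was not tested.

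Promoter windows of 300 bases, from 250 before to 50 after each RefSeq transcription start (GRCh38.p14), were held for 8 of the 9 genes, PDIA3 being the exception. They were searched on both strands for the gamma-activated site (GAS, TTCNNNGAA), for the core of the interferon-stimulated response element (ISRE) bound by IRF1 and other interferon regulatory factors (GAAA, any 2 bases, GAAA), and for the ER stress element (ERSE, CCAAT and CCACG with 9 bases between them). Of 35116 windows of all genes, 7.66% held a GAS match, 3.57% an ISRE core and 0.0769% an ERSE. These are shares of windows and not of genes, and some of the 8 genes have several windows. The matched sites are printed so that the genes with and without them can be read against the response to IFNγ. Letters run 5′ to 3′ on the gene's strand, capitals mark the match, and the matches of TAP1 (ISRE core), ERAP1 and CALR lie on the opposite strand, so that their capitals read as the reverse complement of the motif.
TAP1 GAS, chr6:32852931-32852960, minus strand: gtagcgtgggTTCTGGGAAatgtggagcag
TAP1 ISRE core, chr6:32853816-32853845, minus strand: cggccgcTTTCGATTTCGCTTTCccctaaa
TAP2 ISRE core, chr6:32838778-32838807, minus strand: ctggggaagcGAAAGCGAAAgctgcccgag
TAPBP ISRE core, chr6:33314076-33314105, minus strand: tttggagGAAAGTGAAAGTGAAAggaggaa
ERAP1 ISRE core, chr5:96807924-96807953, minus strand: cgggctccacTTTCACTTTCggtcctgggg
ERAP2 ISRE core, chr5:96876460-96876489, plus strand: tcttagaacaGAAAGTGAAAgcaaaagtaa
CALR ERSE, chr19:12938359-12938458, plus strand: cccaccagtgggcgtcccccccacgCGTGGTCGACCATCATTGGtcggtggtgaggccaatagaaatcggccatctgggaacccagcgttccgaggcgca
CANX ERSE, chr5:179698773-179698802, plus strand: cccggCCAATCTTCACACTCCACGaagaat

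TAP1 and TAPBP each held 2 ISRE cores that overlap by 4 bases, and TAP2, ERAP1 and ERAP2 held 1 each. The ISRE core of TAPBP lay 20 to 5 bases before its start and that of TAP2 lay 58 to 49 bases before, while the match of ERAP1 lay 3 to 12 bases past its start. TAP1 had 2 alternative starts, with the GAS before 1 and the overlapping ISRE cores before the other, and PSMB9, which is transcribed the other way, starts 487 bases from the more upstream one. In GENCODE 29 the sites of TAPBP, ERAP1, ERAP2 and CANX fall in annotated UTR of the same gene. The ISRE match of TAP2 lies outside TAP2 as annotated there, whose highest position is 32838780, and within an exon of a readthrough gene. The ISRE site of TAP1 falls in an exon of TAP1 that is UTR or coding depending on the transcript. The GAS of TAP1 and the CALR site fall outside exons. TAPBPL had no match to any of the 3 motifs in its 2 windows. CALR held 1 ERSE, and 3 of the 4 CANX windows held the same one. A match is a description of these letters and was not tested as a binding site.

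**Figure D1:**
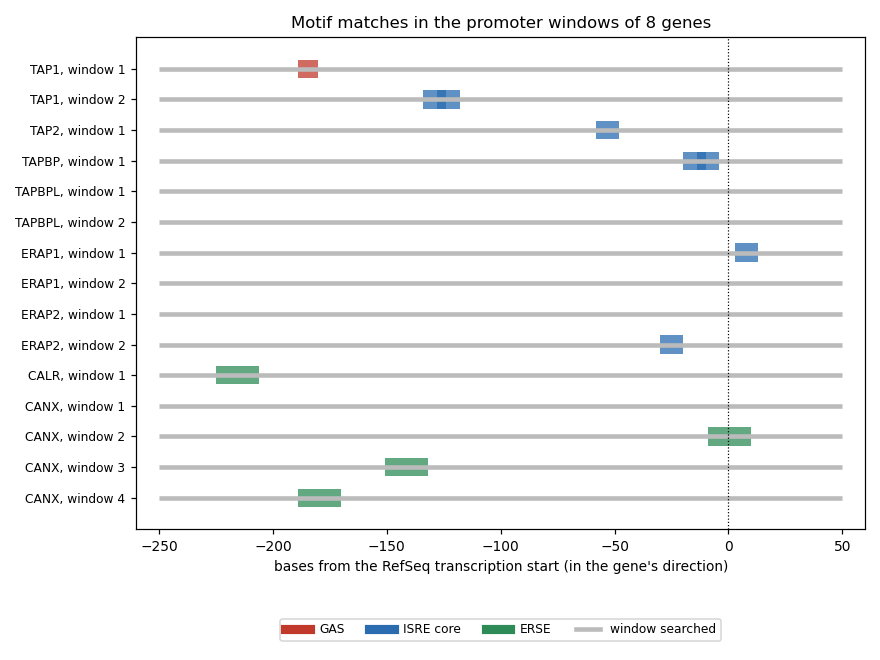
Positions of motif matches in the promoter windows of 8 genes, in bases from the RefSeq transcription start (dotted line at 0) on the horizontal axis, with 1 row per window. ISRE cores (blue) occur in a window of TAP1, TAP2, TAPBP, ERAP1 and ERAP2, the GAS (red) in 1 window of TAP1, and the ERSE (green) in CALR and 3 windows of CANX, while both windows of TAPBPL are empty.

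IFNγ raised 6 of the 9 genes, those of transport, editing and trimming, and none of the 3 chaperones passed the test. Without doxycycline (I against C) all 6 were higher, where 2.21% of the 15828 genes tested were called in either direction and 2.10% were called higher. TAP1 and TAP2 had too few counts in C and D to pass the filter on low counts without the IFNγ libraries, so for them a difference was bound to be found, and they are described by their values. The middle value of the 9 log2 fold changes, TAP1 and TAP2 included, was 3.32, and that of all genes tested was -0.01. Of the 7 genes other than the transporter's, 4 were called. The libraries of I and C did not overlap for 7 of the 9 genes, all higher in I, where 8.84% of all genes did so. Those 7 include TAP1 and TAP2, for which this too was bound to be found, and otherwise were TAPBP, TAPBPL, ERAP1, ERAP2 and PDIA3. In bulk RNA a change in the share of cells that express a gene and a change in RNA per cell cannot be told apart.

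**Figure D2:**
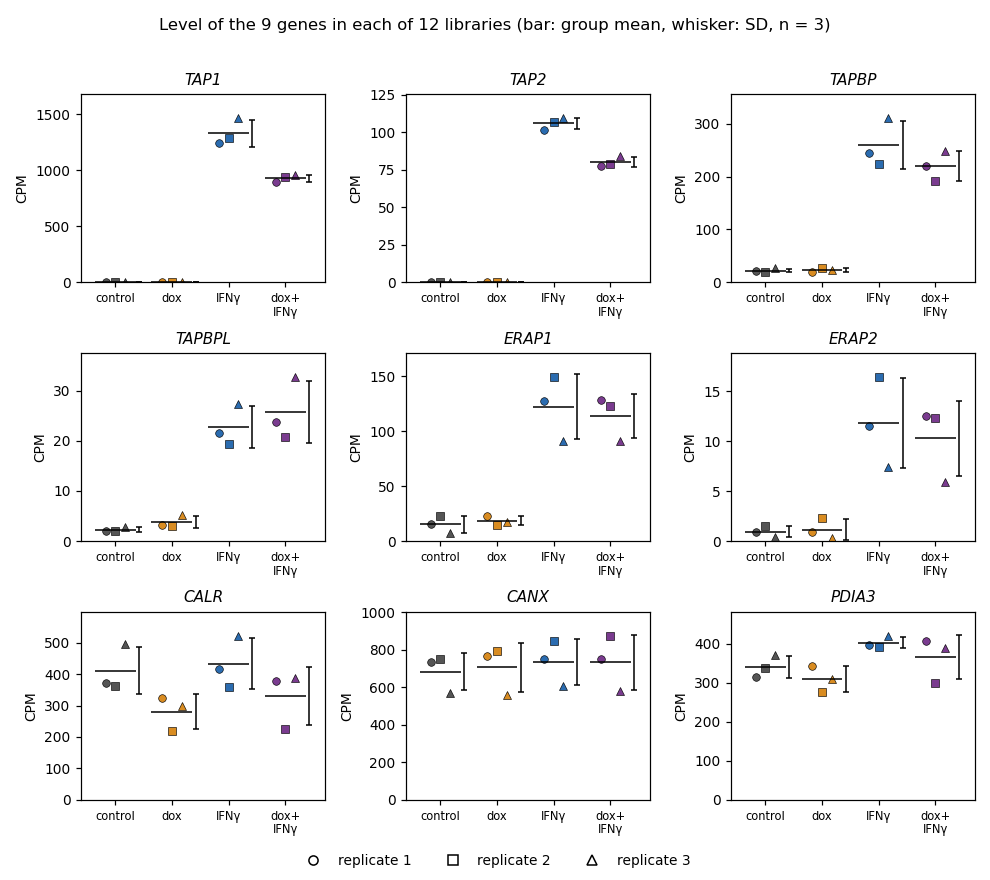
CPM (vertical axes, linear from 0) of the 9 genes in each library of C (control), D (dox), I (IFNγ) and DI (dox and IFNγ), with replicates as circle, square and triangle, bars at group means and whiskers of 1 SD (n = 3). TAP1 and TAP2 sit at or near 0 without IFNγ, the editors and aminopeptidases rise from low levels, and CALR (218 to 520), CANX (558 to 874) and PDIA3 (276 to 419) are well above 0 in all 12 libraries.

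TAP1 (ENSG00000168394, chr6:32845209-32853978, minus strand, GRCh38) and TAP2 (ENSG00000204267, chr6:32821833-32838780, minus strand) lie in the class II region of the MHC and pair to form the pump that moves peptides into the ER. TAP1 measured 0.615, 0 and 0 CPM in C and 0 CPM in all 3 libraries of D, against 1242, 1285 and 1464 CPM with IFNγ alone and 895, 939 and 956 CPM with both agents. The 10 counts in C all came from replicate 1, and D held 0 counts, which allows a level of up to 0.0521 CPM over the group. TAP1 was thus nearly silent in every library without IFNγ and at 895 CPM or more in every library with it. From C to I the ratio of the summed counts was 6972 (95% counting interval 3791 to 14540). From D to DI TAP1 was at least 17872-fold higher, taking the group floor of 3 counts in D.

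TAP2 measured 0.0615, 0 and 0 CPM in C and 0.191, 0 and 0 CPM in D, against 102, 107 and 109 CPM with IFNγ alone and 77.7, 78.9 and 84.4 CPM with both agents. All of its 1 count in C and 4 counts in D came from replicate 1, as for TAP1. The ratio of summed counts was 5556 from C to I (95% counting interval 997 to 219469) and 1159 from D to DI (452 to 4254). The intervals and the floor cover counting error only. In GENCODE 29, 32.3% of the exon bases of TAP2 are shared with a readthrough gene on the same strand, which is not analysed here, and 9.49% of those of TAP1 with PSMB8-AS1 on the opposite strand. The strand setting of the counting is not given in the sources used here, so reads on those bases cannot be assigned to 1 gene with certainty.

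The editors began from a low but measurable level. TAPBP (ENSG00000231925, chr6:33299694-33314387, minus strand) encodes tapasin, which holds an empty class I molecule next to TAP. It measured 21.6, 18.6 and 25.9 CPM in C and 244, 223 and 311 CPM in I, and 18.4, 25.9 and 24.0 CPM in D and 221, 192 and 248 CPM in DI. Every IFNγ library stood above every library without it. TAPBP rose by 3.56 ± 0.19 (SE) on the log2 scale from C to I (11.8-fold, adjusted p = 1.09e-06, edgeR) and by 3.27 ± 0.19 from D to DI (9.67-fold, adjusted p = 2.09e-06).

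TAPBPL (ENSG00000139192, chr12:6451690-6466517, plus strand) lies outside the MHC and encodes TAPBPR, which edits peptides without TAP. It measured 1.97, 1.99 and 2.87 CPM in C and 21.6, 19.3 and 27.4 CPM in I, and 3.19, 3.00 and 5.10 CPM in D and 23.8, 20.7 and 32.7 CPM in DI. The IFNγ libraries again stood clear of the others, and replicate 3 was the highest in all 4 groups. TAPBPL rose by 3.32 ± 0.28 (SE) on the log2 scale from C to I (adjusted p = 3.68e-05, edgeR) and by 2.77 ± 0.27 from D to DI (adjusted p = 0.000134). Its windows held none of the motifs searched. It shares 10.6% of its exon bases with VAMP1 on the opposite strand.

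The aminopeptidases lie side by side on chromosome 5. ERAP1 (ENSG00000164307, chr5:96760810-96808100, minus strand) trims long precursors to the length that class I molecules hold, and ERAP2 (ENSG00000164308, chr5:96875939-96919716, plus strand) cuts after other residues. ERAP1 measured 15.8, 22.3 and 7.42 CPM in C and 128, 149 and 90.7 CPM in I, and 22.8, 14.8 and 17.5 CPM in D and 128, 123 and 91.3 CPM in DI. ERAP2 was lower throughout, at 0.922, 1.49 and 0.436 CPM in C and 11.6, 16.4 and 7.44 CPM in I, and at 0.858, 2.28 and 0.290 CPM in D and 12.6, 12.4 and 5.95 CPM in DI. For both genes the IFNγ libraries did not overlap those without IFNγ, and for ERAP2 replicate 3 was the lowest in all 4 groups. ERAP1 rose by 3.01 ± 0.36 (SE) on the log2 scale from C to I (adjusted p = 0.000547, edgeR) and by 2.63 ± 0.35 from D to DI (adjusted p = 0.00161).

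ERAP2 rose by 3.61 ± 0.68 (SE) on the log2 scale from C to I (adjusted p = 0.0146, edgeR) and by 3.16 ± 0.66 from D to DI (adjusted p = 0.0354), from 52 and 67 counts in all of C and D. The call of ERAP2 in I against C was lost without replicate 1 of C (adjusted p = 0.0946), replicate 3 of C (0.0739) or replicate 2 of I (0.0585). In DI against D it was lost without replicate 1 of C (adjusted p = 0.0655), replicates 1 or 3 of D (0.205 and 0.0854), replicates 1 or 2 of I (0.0708 and 0.0544) or replicates 1 or 2 of DI (0.122 and 0.0998), and when the 6 libraries of D and DI were fitted alone (0.164). The log2 fold change of ERAP2 stayed at 2.71 or more with any single library left out.

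The chaperones gave a different picture. CALR (ENSG00000179218, chr19:12938578-12944489, plus strand) encodes the lumenal lectin of the loading complex, and it measured 371, 363 and 496 CPM in C against 324, 218 and 299 CPM in D, and 417, 360 and 520 CPM in I against 379, 224 and 387 CPM in DI. CANX (ENSG00000127022, chr5:179678628-179730925, plus strand), the membrane lectin that holds new class I chains, measured 733, 750 and 571 CPM in C, 766, 795 and 558 CPM in D, 750, 848 and 606 CPM in I, and 751, 874 and 581 CPM in DI. PDIA3 (ENSG00000167004, chr15:43746392-43773279, plus strand), the disulfide isomerase bound to tapasin, measured 314, 338 and 371 CPM in C, 344, 276 and 310 CPM in D, 397, 391 and 419 CPM in I, and 406, 301 and 390 CPM in DI. Libraries with and without IFNγ overlapped for CALR and CANX in both comparisons, and for PDIA3 in DI against D but not in I against C.

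From C to I the log2 fold change was 0.08 for CALR (95% interval -0.44 to 0.59), 0.10 for CANX (-0.32 to 0.53) and 0.24 for PDIA3 (-0.04 to 0.52), and none passed the test (smallest adjusted p = 0.768, PDIA3, edgeR). From D to DI it was 0.24 for CALR (-0.28 to 0.75), 0.06 for CANX (-0.37 to 0.48) and 0.24 for PDIA3 (-0.04 to 0.52), with a smallest adjusted p of 0.982. The upper ends of these intervals lie below the lower ends for the editors and ERAP1, so a rise of the size seen for tapasin was outside them. PDIA3 shares 14.8% of its exon bases with ELL3 and CALR 9.95% with an antisense gene that is not analysed here.

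**Figure D3:**
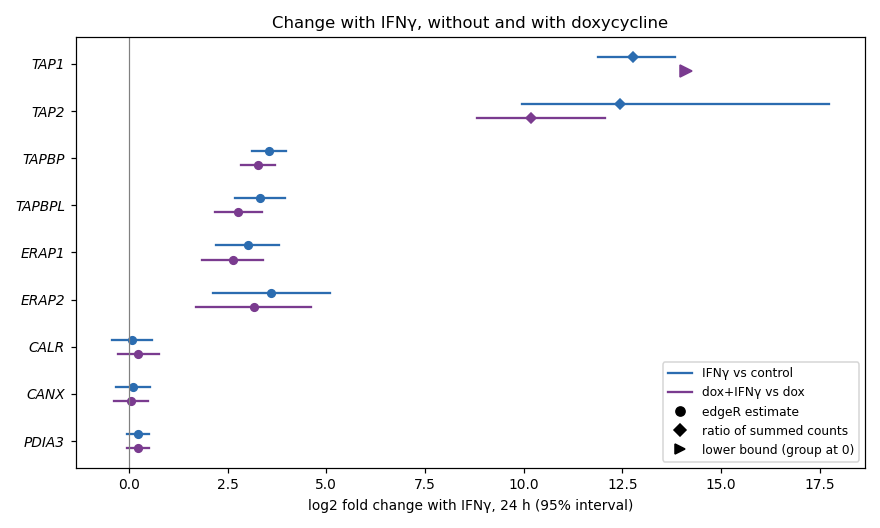
Log2 fold change with IFNγ (horizontal axis) for the 9 genes, in I against C (blue) and DI against D (purple). Circles are edgeR estimates, diamonds are ratios of summed counts, lines are 95% intervals, and the triangle is the lower bound for TAP1 where D held 0 counts. CALR, CANX and PDIA3 lie at 0.06 to 0.24, TAPBP, TAPBPL, ERAP1 and ERAP2 at 2.63 to 3.61, and the transporter genes beyond 10.

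In DI against D the same 6 of 9 genes passed, all higher, where 1.72% of all genes were called in either direction and 1.67% higher. The middle value of the 9 log2 fold changes, TAP1 and TAP2 included, was 2.77, and that of all genes -0.01. Of the 7 genes other than the transporter's, 4 were called again. The libraries did not overlap for 6 genes, all higher in DI, where 5.77% of all genes did so. Beside TAP1 and TAP2, again bound to differ, these were TAPBP, TAPBPL, ERAP1 and ERAP2. I against C and DI against D do not share a library, and whether the response to IFNγ differed with doxycycline was tested directly as an interaction. By edgeR 0 of the 9 genes passed that test, and 0 had an unadjusted p under 0.05, a level that 0.625% of all genes reached. Of all 15828 genes 0 passed, and DESeq2 called 0 of the 9 genes and 1 gene in all. The log2 difference of the responses was -0.28 for TAPBP (95% interval -0.84 to 0.27), -0.55 for TAPBPL (-1.37 to 0.27), -0.38 for ERAP1 (-1.42 to 0.67) and -0.45 for ERAP2 (-2.41 to 1.5). It was 0.16 for CALR (-0.57 to 0.89), -0.04 for CANX (-0.65 to 0.56) and 0.00 for PDIA3 (-0.40 to 0.39). No such value is given for TAP1 and TAP2, because with 10 and 1 counts in C and 0 and 4 in D it would depend on the handling of zeros. For the same reason the test cannot decide for them, and the count of 0 of 9 speaks only for the other 7 genes.

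Counts per kilobase of exon (CPM per kb, over all GENCODE 29 exons of a gene) allow the genes to be set in order within a group. That length joins the exons of all annotated transcripts, whichever of them these cells use, so close ranks and ratios per kb depend on it. In C the chaperones led, with CALR at 151 ± 27.6 (SD, n = 3), CANX at 110 ± 15.9 and PDIA3 at 80.4 ± 6.81 CPM per kb. The CALR libraries (134 to 183) did not overlap those of CANX (91.5 to 120), nor those of CANX the PDIA3 ones (74.0 to 87.6). Far below came TAPBP at 4.36 ± 0.732, ERAP1 at 1.91 ± 0.942, TAPBPL at 0.713 ± 0.161 and ERAP2 at 0.128 ± 0.0710 CPM per kb, and these 4 did not overlap with each other either. TAP1 and TAP2 had means of 0.0426 and 0.00321 CPM per kb and 0 counts in 2 of 3 libraries, and the remaining TAP1 library (0.128) lay within the range of ERAP2 (0.0588 to 0.201).

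In I the order changed. TAP1 stood first at 277 ± 24.5 (SD, n = 3) CPM per kb, above CALR (159 ± 29.9), CANX (118 ± 19.5) and PDIA3 (95 ± 3.48). The lowest TAP1 library (258) exceeded the highest CALR one (192), whereas CALR and CANX overlapped (133 to 192 and 97.2 to 136), as did CANX and PDIA3 (92.3 to 98.9). TAPBP followed at 51.3 ± 9.0, TAP2 at 16.6 ± 0.603 and ERAP1 at 15.4 ± 3.72, and TAP2 (15.9 to 17.1) and ERAP1 (11.4 to 18.8) could not be ranked. TAPBPL at 7.13 ± 1.32 and ERAP2 at 1.59 ± 0.605 CPM per kb came last. In DI TAP1 remained first at 194 ± 6.50 CPM per kb, with a lowest library (186) above the highest of CALR (143) and CANX (140).

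Doxycycline alone (D against C) gave no call among the 9 genes by edgeR, where 1.23% of all genes were called. At an unadjusted p under 0.05 there were 3 of 9 (TAPBPL, CALR and TAP1, the last on 10 counts of 1 library), where 14.2% of all genes lay, and DESeq2 called 0 (4.77% of the genes it tested). The libraries did not overlap for 2 genes, TAPBPL higher in D (10.1% of all genes were) and CALR lower in D (9.10% were). With the replicate number as a block those 2 genes were called, where 13.9% of all genes were. TAPBPL, at 3.19, 3.00 and 5.10 CPM in D against 1.97, 1.99 and 2.87 in C, had a log2 fold change of 0.73 ± 0.27 (SE; 95% interval 0.12 to 1.33; adjusted p = 0.256, or 0.00686 with the block). CALR, at 324, 218 and 299 CPM in D against 371, 363 and 496 in C, had a log2 fold change of -0.55 ± 0.23 (-1.07 to -0.03; adjusted p = 0.321, or 0.0165 with the block).

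The other genes overlapped between D and C. The log2 fold change was 0.05 for TAPBP (95% interval -0.35 to 0.44), 0.27 for ERAP1 (-0.48 to 1.02), 0.26 for ERAP2 (-1.21 to 1.72), 0.05 for CANX (-0.38 to 0.47) and -0.14 for PDIA3 (-0.42 to 0.14). No fold is given for TAP1 and TAP2, whose 10 and 1 counts in C and 0 and 4 counts in D lay in replicate 1.

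**Figure D4:**
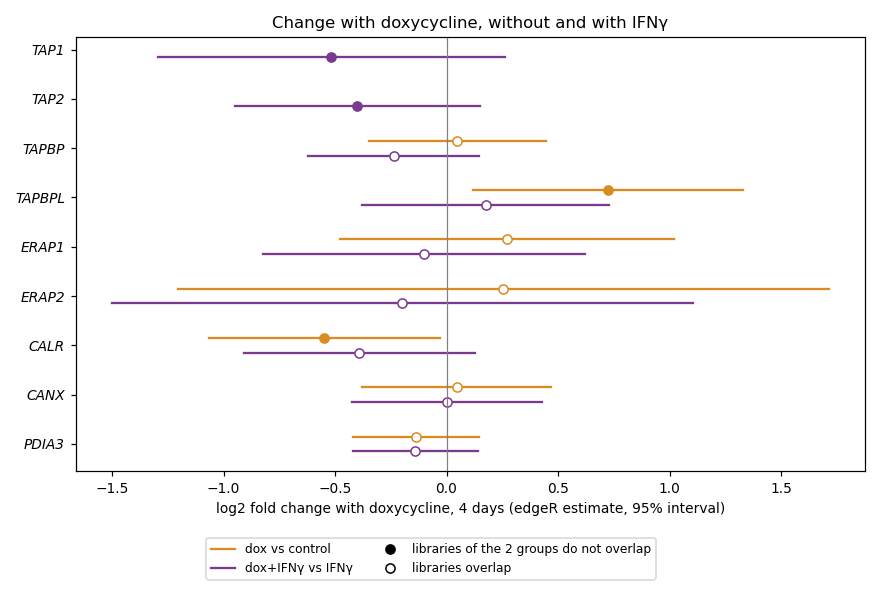
Log2 fold change with doxycycline (horizontal axis) with 95% intervals from edgeR, in D against C (orange) and DI against I (purple), with filled points where the libraries of the 2 groups do not overlap. TAP1 and TAP2 are left out of D against C. Filled points are TAPBPL (0.73) and CALR (-0.55) in D against C, and TAP1 (-0.52) and TAP2 (-0.40) in DI against I.

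Under IFNγ (DI against I) 0 of the 9 genes passed the edgeR test, where 0.670% of all genes did, and 0 had an unadjusted p under 0.05, where 12.2% of all genes lay. Of the 9 genes 7 had a log2 fold change below 0, with a median of -0.20 against -0.01 over all genes. With the replicate number as a block 0 of the 9 passed as well, where 10.5% of all genes did. In that fit the smallest adjusted p was 0.0596, for CALR (edgeR). There 2 of the 9 had an unadjusted p under 0.05. That share was not counted over all genes, of which 10.5% passed even after adjustment, so no result is read from it. The transporter genes were the 2 whose libraries did not overlap, both lower in DI, where 8.41% of all genes did so. TAP1 had 895 to 956 CPM in DI and 1242 to 1464 CPM in I, a log2 fold change of -0.52 ± 0.34 (SE; 95% interval -1.29 to 0.26; adjusted p = 0.630). TAP2 had 77.7 to 84.4 CPM in DI and 102 to 109 CPM in I, a log2 fold change of -0.40 ± 0.25 (-0.95 to 0.15; adjusted p = 0.592). An exact two-sided permutation test of 3 against 3 libraries gave p = 0.1 for each, the smallest that it can give.

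The spread assigned to TAP1 and TAP2 depended on which libraries entered the fit. With the 6 libraries of I and DI alone, the SE of TAP1 was 0.11 in place of 0.34 (log2 fold change -0.51, adjusted p = 0.245, edgeR) and that of TAP2 was 0.10 in place of 0.25 (log2 fold change -0.39, adjusted p = 0.276). DESeq2 called TAP2 alone of the 9 genes (log2 fold change -0.40, adjusted p = 0.0445), where it called 3.34% of all genes it tested and 2.21% as lower.

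The other genes overlapped between DI and I. The log2 fold change was -0.24 for TAPBP (95% interval -0.62 to 0.15), 0.18 for TAPBPL (-0.38 to 0.73), -0.10 for ERAP1 (-0.83 to 0.62) and -0.20 for ERAP2 (-1.5 to 1.10). It was -0.39 for CALR (-0.91 to 0.13), 0.00 for CANX (-0.42 to 0.43) and -0.14 for PDIA3 (-0.42 to 0.14). CALR was lowest in replicate 2 of DI (224 CPM), as it was in replicate 2 of every group.

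Ratios of counts within a library do not depend on its depth and compare partners directly. There were 13 comparisons of 4 pairs, with a Benjamini-Hochberg adjusted p of at least 0.26 in each, and with 3 libraries a side the exact two-sided permutation test cannot go below 0.1. TAP1 to TAP2 was 12.2, 12 and 13.4 in I and 11.5, 11.9 and 11.3 in DI, so that the highest ratio in DI lay below the lowest in I. The log2 ratio differed by -0.11 (3.53 ± 0.04 SD in DI and 3.65 ± 0.08 in I, exact p = 0.1). Per kb of exon TAP1 exceeded TAP2 between 15.1-fold and 17.8-fold in the 6 libraries.

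TAPBP to TAPBPL was 11, 9.35 and 9.04 in C against 5.76, 8.64 and 4.70 in D. With IFNγ it was 11.3, 11.6 and 11.3 in I against 9.28, 9.30 and 7.59 in DI. Each doxycycline group lay below its counterpart without overlap. The log2 ratio differed by -0.66 in D against C and by -0.39 in DI against I (exact p = 0.1 for both), by 0.23 in I against C (exact p = 0.1, no overlap) and by 0.49 in DI against D (exact p = 0.2, overlap). Per kb of exon TAPBP exceeded TAPBPL between 2.97-fold and 7.32-fold over the 12 libraries.

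ERAP1 to ERAP2 was 17.1, 15 and 17 in C and 11, 9.09 and 12.2 in I, without overlap (log2 difference -0.61 in I against C, exact p = 0.1). In D it ran from 6.50 to 60.6 and in DI from 9.93 to 15.4. ERAP2 held 18, 44 and 5 counts in the replicates of D and 15, 30 and 7 in those of C. CALR to CANX was 0.505, 0.484 and 0.869 in C against 0.422, 0.275 and 0.537 in D, and 0.556, 0.425 and 0.858 in I against 0.504, 0.256 and 0.667 in DI. The 4 groups overlapped, and replicate 3 was the highest and replicate 2 the lowest in each of them. Within each replicate number the ratio was lower with doxycycline, in 3 of 3 pairs in D against C (mean log2 difference -0.59) and in 3 of 3 in DI against I (-0.41). An exact sign-flip permutation test over the 3 pairs gave p = 0.25 for each, the smallest that it can give.

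**Figure D5:**
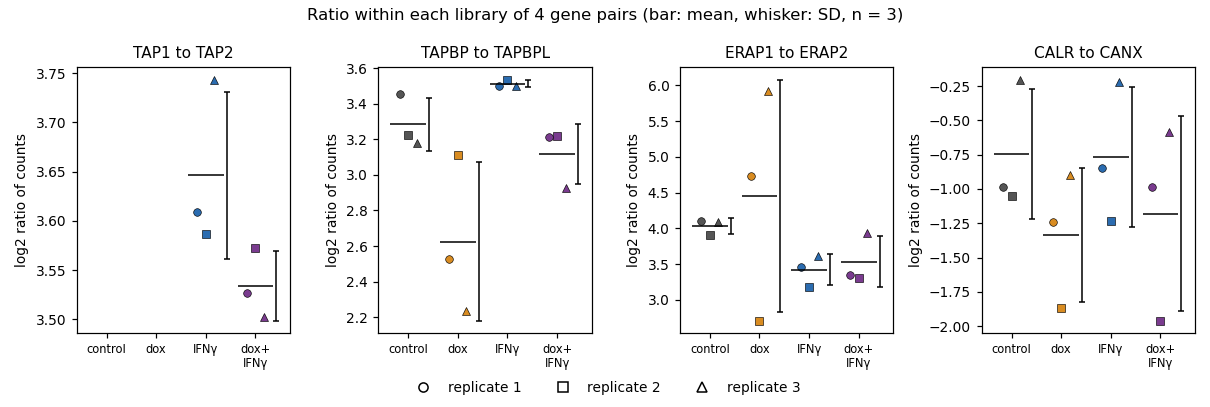
Log2 ratio of counts (vertical axes, each with its own range) within each library for TAP1 to TAP2, TAPBP to TAPBPL, ERAP1 to ERAP2 and CALR to CANX, with replicates as circle, square and triangle, bars at means and whiskers of 1 SD (n = 3). TAP1 to TAP2 is shown only with IFNγ, since most libraries without it held 0 counts. TAPBP to TAPBPL is lower in D than in C and lower in DI than in I in every library.

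Replicate number left a visible mark on several of these genes. CANX and ERAP2 were lowest in replicate 3 in 4 of 4 groups, TAPBPL was highest there in 4 of 4, and CALR and TAPBP in 3 of 4. Replicate 2 held the lowest CALR and the highest CANX in 4 of 4 groups. TAP1 and TAP2 were highest in replicate 3 in both groups with IFNγ. What the numbers stand for is not given in the labels.

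A list of 30 other genes of class I processing gives the company of these 9: the class I chains and NLRC5, proteasome subunits, other peptidases, and glycan quality control and export. All 30 were tested. With IFNγ 13 were called higher and 0 lower both in I against C (2.10% of all genes were called higher) and in DI against D (1.67%). Of those 13 genes 6, namely NLRC5, PSMB8, PSMB9 and 3 class I heavy chain genes, passed the filter on low counts only through the IFNγ libraries, so for them, as for TAP1 and TAP2, a difference was bound to be found. Of the other 24 genes 7 rose in each comparison. The largest fold changes belonged to the immunoproteasome subunits PSMB8 and PSMB9, the neighbours of TAP1 and TAP2, and to NLRC5, the transactivator of class I genes. PSMB9 went from 0.123, 0 and 0 CPM in C to 268, 246 and 413 in I (ratio of summed counts 8105, 95% counting interval 2243 to 66934) and was at least 3802-fold higher in DI than in D, which held 0 counts. PSMB8 went from 0.123, 0 and 0 CPM to 138, 125 and 215 (ratio 4177, interval 1156 to 34497) and was at least 1600-fold higher in DI than in D. NLRC5 went from 3 counts in C to 308 to 431 CPM in I (ratio 6340, interval 2169 to 30743) and from 9 counts in D to 337 to 367 CPM in DI (ratio 2275, interval 1198 to 4976).

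The smallest log2 fold changes in size within the list belonged in I against C to the glucosidase subunit GANAB (-0.01), the constitutive proteasome subunit PSMB7 (-0.02) and the export receptor BCAP31 (0.02), and in DI against D to the subunit PSMB6 (0.00), the signal peptide peptidase HM13 (0.00) and the aminopeptidase LNPEP (0.01). None of these passed the test.

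In D against C 2 of the 30 listed genes passed, 1 in each direction, where 0.493% of all genes were called higher and 0.733% lower, and with the replicate block 5 passed (13.9% of all genes). UGGT1, which sends misfolded glycoproteins, class I molecules included, back to calreticulin, was higher at 283, 219 and 246 CPM in D against 149, 173 and 135 in C (log2 fold change 0.71 ± 0.13 SE, adjusted p = 0.0287, edgeR). PSME1, a subunit of the proteasome activator PA28, was lower at 24.3, 42.9 and 33.8 CPM in D against 54.8, 63.8 and 70.1 in C (log2 fold change -0.90 ± 0.18, adjusted p = 0.0459). The D and C libraries did not overlap for either gene. The PSME1 call was kept only when replicate 2 of D was the library left out (adjusted p = 0.0367, against up to 0.192 without another), and the UGGT1 call was lost without any 1 replicate of C, replicates 1 or 3 of D, or replicate 1 of I or of DI (adjusted p up to 0.149). With the 6 libraries of C and D alone the adjusted p was 0.201 for PSME1 and 0.149 for UGGT1. Of the 6 alternative settings that did not leave out a single library, PSME1 kept its call in 4 and UGGT1 in 5. For PSME1 the adjusted p was 0.00197 with the block and 0.0607 with scaling by library size alone (edgeR).

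In DI against I, where 0.670% of all genes were called, 0 of the 30 genes passed by edgeR. At an unadjusted p under 0.05 there were 5 of 30, where 12.2% of all genes lay, DESeq2 called 2, where it called 3.34% of all genes, and with the block 5 were called where 10.5% of all genes were. Chosen after their values were seen, those 5 were PSMB8, PSMB9 and PSME1, lower in DI with log2 fold changes of -0.95, -0.63 and -0.71 and adjusted p of 0.00332, 0.0191 and 0.00732, and UGGT1 and LNPEP, higher at 0.44 and 0.53 (0.0388 and 0.0348). In the interaction 0 of 30 passed by edgeR and by DESeq2, and 0 had an unadjusted p under 0.05. The 30 include the 6 genes with too few counts in C and D to pass the filter there, for which this test cannot decide.

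A second list held 16 other ER chaperones and disulfide isomerases, as company for CALR, CANX and PDIA3. With IFNγ 1 of 16 passed in each comparison (2.21% of all genes in I against C and 1.72% in DI against D), the isomerase PDIA6, named after its values were seen, with a log2 fold change of 0.75 ± 0.10 SE in I against C (adjusted p = 0.00137, edgeR) and 0.54 ± 0.10 in DI against D (adjusted p = 0.0179). With the replicate block 2 of 16 passed in each (6.02% and 4.46% of all genes), the second being ERP44, which retains unassembled proteins and was likewise named after its values were seen (log2 fold changes 0.44 and 0.40, adjusted p = 0.0110 and 0.0244, edgeR). In D against C 1 of 16 passed, where 1.23% of all genes did and 0.733% as lower. DNAJB9, a cochaperone of the ER Hsp70 BiP, was lower at 16.7, 17.3 and 20.6 CPM in D against 37.5, 36.3 and 31.2 in C (log2 fold change -0.95 ± 0.12, adjusted p = 0.00491). Where 0.569% of all genes were called lower in DI against I, it was also lower at 17.8, 18.5 and 17.7 CPM in DI against 36.1, 36.1 and 37.3 in I (-1.02 ± 0.12, adjusted p = 0.00484). With only the libraries of C and D the DNAJB9 call was lost (adjusted p = 0.0929). SDF2L1 (-0.44, adjusted p = 0.492) and CRELD2 (-0.37, adjusted p = 0.658), the next in size, did not pass in D against C. Other genes of the list went the other way, with a highest log2 fold change of 0.36. Of the 16 genes 11 lay below 0 and 5 above it in D against C, and 13 below and 3 above in DI against I. The medians were -0.12 and -0.15 against 0.00 and -0.01 over all genes. The share of all genes below 0 was not counted, and the direction of the list was not tested.

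The genes whose levels followed TAP1 and CALR most closely differed in kind. By Pearson correlation of log2 CPM over the 12 libraries, among 13958 genes, those most like TAP1 were BTN3A2 (0.999), IFIH1 (0.998), GBP1 (0.998), PSMB8 (0.997) and PLAAT4 (0.994), over libraries that split into those with and those without IFNγ. Those most like CALR, among 13960 genes, were TMEM11 (0.970), DYNLL1 (0.968), TBCB (0.964), MMP24 (0.960) and HCCS (0.953). The libraries share groups and replicate numbers, so these values describe likeness of pattern and are no test.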

How the data were processed

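RNA-sequencing of 12 SK-N-DZ libraries was analysed from the raw count per gene deposited by the authors. Sequencing was paired-end on an Illumina instrument, and the aligner, counting tool, build and strand setting are not given in the sources used here. The authors' tables of fold changes and p-values, DESeq2 results per the file headers, were not used, nor were 18 per-library columns in them whose codes the labels do not explain. Gene positions and exon lengths came from GENCODE 29 (GRCh38) and promoter windows from RefSeq (GRCh38.p14).

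Counts were filtered with filterByExpr (minimum count 10, 15828 of 43769 genes kept), scaled by TMM and tested in one edgeR 4.0.16 quasi-likelihood fit of the 4 groups (limma 3.58.1, R 4.3.3), with Benjamini-Hochberg adjustment over all genes tested and calls at 0.05. CPM were computed from TMM-scaled library sizes. Intervals of fold changes are at 95%, ratios of summed counts have exact binomial intervals, and the floor is 3 counts. Depth was 16469832 to 21790869 counts per library. The labels do not say whether replicates were separate cultures, so p-values measure the spread between these samples, which may be technical. Replicates of a group differed by more than counting noise (chi-square per gene 19.8 to 85.5 over 12 pairs).

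The replicate numbers in the labels pair the libraries. In deviations from the group means, same-numbered libraries correlated at 0.338 to 0.804 (18 pairs) and others at -0.628 to 0.143 (36 pairs). The main fit has no block, and a fit with the number as a block is an alternative. Others were DESeq2's size factors, library size alone, no filter, the DESeq2 1.42.0 Wald test, the 2 groups of a comparison alone, and leaving out each library. The code was tested on simulated data.

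The genes and lists were chosen with earlier results of these data known. Named beside the 9 genes were ARID1A, the listed class I genes called in D against C or DI against I, the 3 largest and 3 smallest fold changes of that list with IFNγ, the 3 ER chaperones that differed most in D against C, and the 5 genes most like TAP1 and CALR (prior count 2, mean of at least 1 CPM, no overlap in position). Protein sequences were not analysed here.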

Additional observations from a re-analysis of the deposited data

How the results depend on the processing

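With 3 libraries a group, 1 clone and a mean ERAP2 level near 1 CPM without IFNγ, small changes could not be separated from spread, and exact tests of single values could not pass 0.05. Over the 86 results and their alternatives, 1264 of 1395 values kept their direction and side of the threshold (counts within 1.5 times). For the 41 results on the 9 genes this held for 675 of 731 values. Those values include TAP1 and TAP2 with IFNγ, which were bound to differ, and values that had not passed the test and still did not. The tally is therefore a description and no measure of support. In I against C and DI against D the number of the 9 genes called stayed at 6 or 5 under every alternative run, and the 5 always lacked ERAP2.

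The replicate block raised the calls in D against C from 0 to 2 of the 9 genes and from 2 to 5 of the 30 listed genes, and those in DI against I from 0 to 5 of the 30. Under the block 3 fold changes near 0 turned, to -0.00373 for PSMB6 and -0.0338 for LNPEP in DI against D and to -0.00481 for CANX in DI against I, and in no other comparison did the number of the 9 genes called change. The exact sign-flip permutation test of the count ratios within replicate numbers cannot go below p = 0.25.

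DESeq2 called 1 of the 9 genes and 2 of the 30 in DI against I. In D against C the 30 genes gave 1 call with library size alone, 0 with the libraries of C and D alone, and 0 to 2 with 1 library left out. Library size alone turned the log2 fold changes of BCAP31 in I against C (-0.0201), of PSMB6 (-0.0369) and LNPEP (-0.0278) in DI against D, and of PDIA3 in the interaction (0.00226). PDIA3 in the interaction was also turned without a filter (0.00973) and by DESeq2 (0.000327), and HM13 in DI against D without a filter (0.00682) and with the 2 groups alone (0.00983). The cause was not tested.

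Leaving out 1 library turned the sign of further values that had not passed the test. In I against C the log2 fold change ran from -0.0900 to 0.239 for CALR, -0.0144 to 0.210 for CANX, -0.0574 to 0.0234 for GANAB, -0.0580 to 0.0111 for PSMB7 and -0.0456 to 0.0864 for BCAP31. In DI against D it ran from -0.0866 to 0.201 for CANX, -0.0967 to 0.130 for PSMB6, -0.0905 to 0.120 for HM13 and -0.215 to 0.231 for LNPEP. In D against C it ran from -0.0704 to 0.180 for TAPBP, -0.0550 to 0.656 for ERAP1, -0.713 to 0.744 for ERAP2 and -0.0721 to 0.188 for CANX. In DI against I it ran from -0.0361 to 0.347 for TAPBPL, -0.264 to 0.0618 for ERAP1, -0.428 to 0.112 for ERAP2 and -0.143 to 0.143 for CANX. In the interaction it ran from -0.930 to 0.513 for ERAP2, -0.00261 to 0.372 for CALR, -0.188 to 0.0992 for CANX and -0.0843 to 0.121 for PDIA3. The log2 ratio of ERAP1 to ERAP2 differed by -0.314 to 1.30 in D against C and by -0.0872 to 0.228 in DI against I, and that of CALR to CANX by -0.296 to 0.249 in I against C and by -0.140 to 0.550 in DI against D. The causes were not tested.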
